A study of Mus musculus with 34 samples.

Results

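The thalamus of GFP-BM REPOP mice, whose brains were repopulated by bone marrow-derived cells after microglial depletion, was compared with that of GFP-BM CON mice, which were irradiated and transplanted but not depleted. The members were the 7 libraries whose labels name the thalamus and either irradiation with PLX3397 (4 GFP-BM REPOP, from animals 1, 2, 3 and 4) or irradiation alone (3 GFP-BM CON, from animals 18, 6 and 9, called replicates 1, 2 and 3), out of 34 RNA-seq libraries of cortex, hippocampus and thalamus. Every library was bulk RNA of 1 region of 1 mouse, and the thalamus was dissected together with the striatum. Both groups were C57BL/6 mice that received 1000 cGy of whole-body irradiation at 4 months of age and then whole bone marrow from CAG-EGFP donors, in which a ubiquitous promoter drives GFP in all cells, so that GFP marks donor origin and not a cell type. The GFP-BM REPOP mice were in addition given PLX3397, an oral inhibitor of the receptor CSF1R, at 600 ppm in the diet for 14 days, starting 3.5 months after the transplant, and the tissue was taken 6 months after its withdrawal, at about 10 months after irradiation. The 4 WT CON thalamus libraries, from mice neither irradiated nor transplanted, entered no test and are given as background values.

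Microglia are the macrophages of the brain parenchyma. They arise in the embryo, depend on CSF1R signalling for survival, and keep a program of genes such as *P2ry12*, *Sall1* and *Siglech* that blood-derived macrophages express little or not at all. When the niche is emptied in an irradiated brain, monocyte-derived cells from the marrow can settle there, and such cells are known to keep *Ms4a7*, *Lyz2* and other macrophage genes even after long residence. In bulk tissue, fewer cells of a type and less RNA per cell cannot be told apart.

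The 4 genes below lie at the centre of the comparison, and the 250 bases before their annotated starts are shown because they are 3 macrophage genes that were higher in every GFP-BM REPOP library and the microglial gene *P2ry12*, which was lower in every one. They come from RefSeq (GRCm38.p6; the submitters' processing notes name mm10, the same assembly), read 5′ to 3′ on the strand of the gene, and capitals mark AGGAAG on either strand, letters that are part of what ETS factors such as PU.1 bind. *Ms4a7* (the first of its 2 annotated starts) is at chr19:11336147-11336396 on the minus strand, *Lyz2* at chr10:117282273-117282522 on the minus strand, *Ms4a6c* at chr19:11469118-11469367 on the plus strand and *P2ry12* at chr3:59262986-59263235 on the minus strand.
Ms4a7: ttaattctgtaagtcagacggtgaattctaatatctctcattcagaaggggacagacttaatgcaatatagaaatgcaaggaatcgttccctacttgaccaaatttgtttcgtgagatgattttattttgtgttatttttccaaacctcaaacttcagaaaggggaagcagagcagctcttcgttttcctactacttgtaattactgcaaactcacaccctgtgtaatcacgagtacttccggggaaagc
Lyz2: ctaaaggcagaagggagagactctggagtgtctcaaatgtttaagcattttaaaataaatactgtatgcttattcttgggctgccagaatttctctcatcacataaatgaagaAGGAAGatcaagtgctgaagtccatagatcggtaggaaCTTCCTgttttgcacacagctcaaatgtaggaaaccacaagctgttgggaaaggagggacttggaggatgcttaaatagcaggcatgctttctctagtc
Ms4a6c: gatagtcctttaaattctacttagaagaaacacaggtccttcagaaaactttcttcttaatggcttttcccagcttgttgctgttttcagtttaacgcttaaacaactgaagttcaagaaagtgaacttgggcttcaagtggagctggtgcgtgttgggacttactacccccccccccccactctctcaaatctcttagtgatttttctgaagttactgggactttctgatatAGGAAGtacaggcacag
P2ry12: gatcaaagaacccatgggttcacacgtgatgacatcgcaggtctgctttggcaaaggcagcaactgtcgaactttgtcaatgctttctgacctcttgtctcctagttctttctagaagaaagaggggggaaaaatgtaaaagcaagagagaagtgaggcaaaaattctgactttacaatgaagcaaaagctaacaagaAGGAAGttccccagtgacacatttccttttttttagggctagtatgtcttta

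AGGAAG occurred 2 times before *Lyz2*, 1 time each before *Ms4a6c* and *P2ry12*, and 0 times before *Ms4a7*, while 29.5% of 32851 RefSeq promoters of the same length held it on at least 1 strand. The AP-1 letters TGANTCA, found in 6.75% of promoters, were in none of the 4 windows, but occurred 1 time before the other annotated start of *Ms4a7* (chr19:11334696-11334945, minus strand), a window with 0 AGGAAG and 2 TTNCNNAA. TTNCNNAA, letters that sites of C/EBP factors often hold and that can share bases with AGGAAG, was found in 36.8% of promoters and occurred 3 times before *Ms4a7*, 2 times before *Ms4a6c* and 1 time each before *Lyz2* and *P2ry12*. The windows of *Apobec1* and *Crybb1* were searched too and held 0 of each motif, and they are not printed.

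The values are FPKM, the reads of a gene scaled by its length and by library depth, as the authors deposited them, and the reads recovered from their steps came to between 18878835 and 23420730 in GFP-BM CON and between 20459415 and 23252664 in GFP-BM REPOP thalamus libraries. Several libraries stood apart in ways the groups do not explain. GFP-BM CON replicate 1 (animal 18) held 838 reads of the Y-linked *Eif2s3y* and 5 of *Xist*, the RNA of the inactive X, whereas the 31 libraries of all other animals held at most 3 reads of *Eif2s3y* and at least 1073 of *Xist*, although the methods describe male mice. GFP-BM CON replicate 2 held 40.3 FPKM of *Cbln3* and 28 of *Gabra6*, genes of cerebellar granule cells that stood at 1.73 or less in the other 6 libraries, and GFP-BM REPOP replicate 1 held 34.4 FPKM of *Prl*, a pituitary hormone gene, against 4.15 or less. *Tcf7l2*, a transcription factor of thalamic neurons, was at 14.5 to 24.5 FPKM in GFP-BM CON and 17.1 to 31.1 in GFP-BM REPOP, and *Drd1*, a dopamine receptor of the striatum, at 5.66 to 12 and 6.24 to 12.7, so both parts of the dissection were present in every library. The precursor of ribosomal RNA, *Rn45s*, did follow the groups, without overlap. It was at 8.56 to 9.65 FPKM in GFP-BM CON and at 11.5 to 14.98 in GFP-BM REPOP. The part of these differences in the results below was not tested, other than by leaving out each library. Leaving out 1 library cannot remove a shift shared by a whole group. In the WT CON libraries, genes rich in GC stood higher beside genes poor in GC. The difference of their median log2 levels was 1.08 to 3.62, highest in WT CON replicate 2 (animal 34), against 0.434 to 0.935 in the 7 libraries compared. The part of this shift in the WT CON values was not tested.

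Of 14107 genes tested, 1 passed a Benjamini-Hochberg adjusted p of 0.05 in the limma-trend fit of log2(FPKM + 0.1), which is 0.00709% of them. The gene was *Ms4a7*, a tetraspan-like membrane protein of macrophages (chr19:11321039-11336146). It was at 1.20, 1.04 and 0.940 FPKM in GFP-BM CON replicates 1 to 3 and at 5.78, 4.26, 5.23 and 7.18 FPKM in GFP-BM REPOP replicates 1 to 4, while the WT CON libraries held 0.341, 0.460, 0.335 and 0.0490. All repopulated libraries thus lay far above all irradiated controls, and these above all unirradiated mice. *Ms4a7* rose by 2.28 ± 0.18 (SE) on the log2 scale (adjusted p = 0.0175), from 1.06 ± 0.131 to 5.61 ± 1.22 FPKM (SD, n = 3 and 4), on 19 to 27 reads against 85 to 148. With 1 library left out at a time the difference stayed between 2.16 and 2.40, but the adjusted p passed only without GFP-BM REPOP replicate 2 (0.011) or replicate 4 (0.0288). It did not pass without GFP-BM CON replicate 1 (0.113), 2 (0.197) or 3 (0.171), or GFP-BM REPOP replicate 1 (0.155) or 3 (0.13), nor with WT CON in the fit (0.44) or by voom on the recovered reads (0.285). At an unadjusted p under 0.05 stood 223 genes higher in GFP-BM REPOP (1.58% of genes) and 192 lower (1.36%), together 2.94%. These are 415 genes, where 705 would be expected if no gene differed. The groups did not overlap for 318 genes higher (2.25%) and 315 lower (2.23%), and the median log2 fold change of all genes was -0.01.

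The next genes by size of the test statistic were again mostly macrophage genes, and none of them passed. *Lyz2*, which encodes lysozyme of phagocytes, was at 46.2, 40.9 and 34.1 FPKM in GFP-BM CON and at 156, 98.7, 114 and 175 in GFP-BM REPOP, against 12.8 to 29.7 in WT CON. *Apobec1*, a cytidine deaminase that edits RNA, was at 1.44, 1.21 and 1.28 FPKM in GFP-BM CON and at 3.03, 3.22, 2.71 and 3.98 in GFP-BM REPOP. Neither gene overlapped between the groups, and both were lowest in WT CON. The log2 differences were 1.72 ± 0.20 for *Lyz2* and 1.23 ± 0.15 for *Apobec1* (SE; adjusted p = 0.169 for both). *Lyz2* passed in 1 of the fits with a library left out, that without GFP-BM REPOP replicate 2 (log2 difference 1.86, adjusted p = 0.0252).

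**Figure D1:**
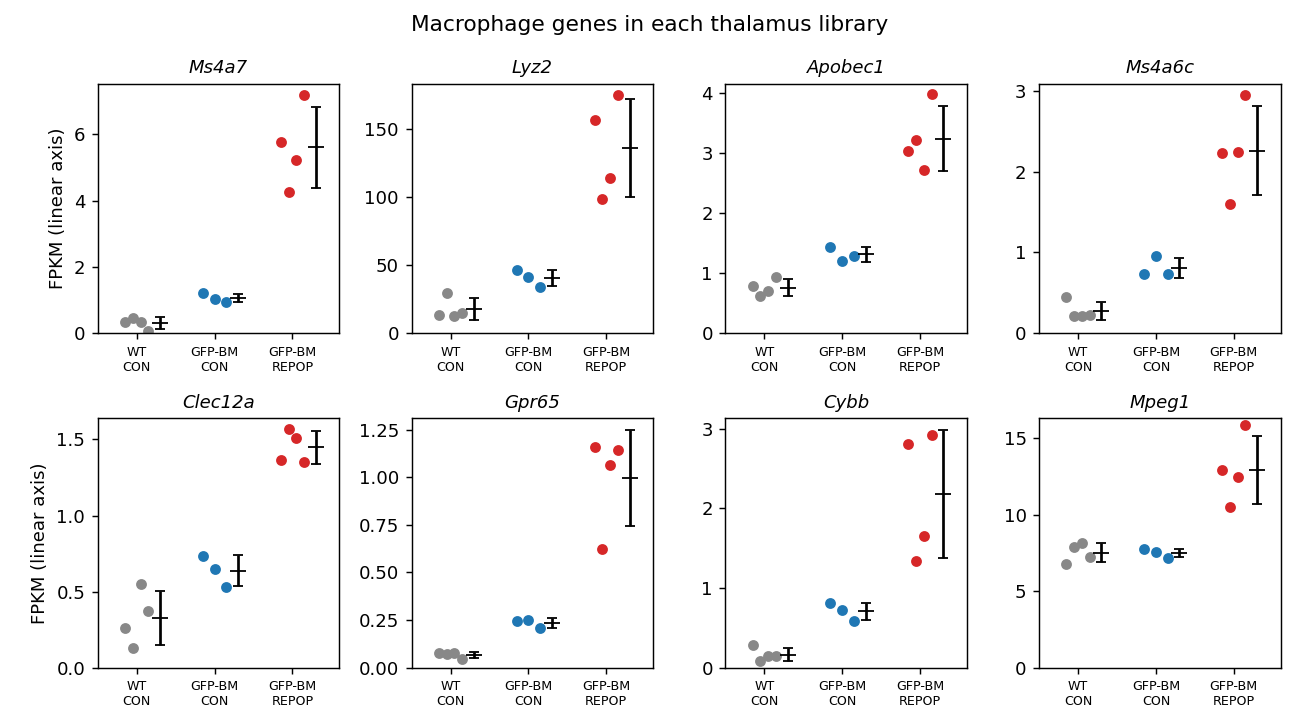
FPKM on linear axes of 8 macrophage genes in each thalamus library of WT CON (grey, n = 4), GFP-BM CON (blue, n = 3) and GFP-BM REPOP (red, n = 4), with black bars for mean ± SD. In all 8 panels the red points lie above the blue ones without overlap, and of the 8 genes *Ms4a7* passed the adjusted p. *Clec12a*, *Gpr65* and *Mpeg1* were chosen among genes without overlap, and *Cybb* was named after its values were seen. The filter on low values required an FPKM of at least 1 in 3 or more thalamus libraries. *Ms4a7*, *Ms4a6c*, *Clec12a*, *Gpr65* and *Cybb* reached it only through GFP-BM REPOP, which favoured a higher level there.

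Further members of the *Ms4a* cluster on chromosome 19 lay in the same direction as *Ms4a7*. Like *Ms4a7*, the genes *Ms4a6c*, *Ms4a6b* and *Ms4a6d* reached the filter on low values only through GFP-BM REPOP, which favoured a higher level there. *Ms4a6c* was at 0.732, 0.954 and 0.737 FPKM in GFP-BM CON and at 2.23, 1.60, 2.25 and 2.95 in GFP-BM REPOP, without overlap (log2 difference 1.36 ± 0.21, adjusted p = 0.428). *Ms4a6b* was at 0.742, 0.519 and 0.324 FPKM against 1.85, 0.920, 1.63 and 1.30, also without overlap but on 13 to 70 reads (1.29 ± 0.31, adjusted p = 1.00). *Ms4a6d* overlapped, with 0.526 to 1.19 FPKM in GFP-BM CON and 1.02 to 1.56 in GFP-BM REPOP. These genes share a family, and reads of close copies could be divided between them by the counting.

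Genes of phagocyte recognition and killing followed. *Clec12a*, an inhibitory lectin receptor of myeloid cells, was at 0.732, 0.649 and 0.530 FPKM in GFP-BM CON and at 1.36, 1.57, 1.51 and 1.35 in GFP-BM REPOP (1.08 ± 0.17). *Gpr65*, a receptor that senses protons, was at 0.246, 0.253 and 0.207 against 1.16, 0.624, 1.06 and 1.14, on 10 to 12 reads against 27 to 53 (1.68 ± 0.27). *Mpeg1*, the pore-forming perforin-2, was at 7.73, 7.53 and 7.20 against 12.9, 10.5, 12.5 and 15.8 (0.76 ± 0.13). Each of these had an adjusted p of 0.428. *Cybb*, the catalytic subunit of the phagocyte NADPH oxidase, was at 0.808, 0.727 and 0.593 FPKM in GFP-BM CON and at 2.81, 1.34, 1.65 and 2.92 in GFP-BM REPOP (1.43 ± 0.29, adjusted p = 0.986). In all 4 genes the lowest repopulated library lay above the highest control. For *Clec12a*, *Gpr65* and *Mpeg1* the rule that chose them required this, and *Cybb* was named after its values were seen. In *Gpr65*, *Mpeg1* and *Cybb* the lowest repopulated library was replicate 2. The filter on low values asked for an FPKM of at least 1 in 3 or more thalamus libraries. *Clec12a*, *Gpr65* and *Cybb* reached it only through GFP-BM REPOP, which favoured a higher level there.

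Further genes of myeloid cells and their lysosomes were compared in the same way. *Tyrobp*, the adaptor of TREM2 and other receptors, was at 20.8, 19.4 and 19.95 FPKM in GFP-BM CON and at 24.8, 27.3, 24.4 and 27.6 in GFP-BM REPOP (0.37 ± 0.06, adjusted p = 0.428). *Ctsc*, a lysosomal protease, was at 2.90, 2.98 and 3.40 against 5.38, 4.76, 5.02 and 6.82 (0.80 ± 0.13, adjusted p = 0.432). *Cd68*, a lysosomal membrane protein of phagocytes, was at 8.82, 7.87 and 6.55 against 14.0, 11.1, 10.3 and 14.2 (0.67 ± 0.15, adjusted p = 0.999). None of these overlapped between the groups, which for *Tyrobp* and *Ctsc* was required by the rule that chose them. *Aif1*, which encodes the pan-myeloid stain IBA1, overlapped at 6.20, 4.77 and 5.09 FPKM against 6.00, 5.16, 6.05 and 7.44 (0.20 ± 0.14). *Csf1r*, the target of the depleting drug, was at 11.5, 12.4 and 12.8 against 15.4, 13.01, 15.01 and 18.3, both below the 20.02 to 35.8 FPKM of WT CON. *Adgre1*, which encodes F4/80, was at 1.83, 1.95 and 1.91 against 4.05, 2.83, 3.72 and 5.21 (0.99 ± 0.19, adjusted p = 0.77).

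The list of peripheral macrophage genes had 35 symbols, of which 24 were in the table and 22 were tested. *Ms4a7* alone passed, 14 stood at an unadjusted p under 0.05 with the higher level in GFP-BM REPOP and 0 with the lower (1.58% and 1.36% of all genes), and 13 were higher without overlap (2.25% of all genes). The median log2 difference was 0.62 (range -0.11 to 2.28), beside -0.01 over all genes, and the summed level ran from 125 to 144 FPKM in GFP-BM CON, from 219 to 309 in GFP-BM REPOP and from 104 to 184 in WT CON. Of the 22, 8 reached the filter on low values only when the GFP-BM REPOP libraries were counted, namely *Ms4a7*, *Ms4a6b*, *Ms4a6c*, *Ms4a6d*, *Lilrb4a*, *Clec12a*, *Cybb* and *Clec7a*, so that passing it favoured a higher level there. Over the other 14, 6 were higher and 0 lower at an unadjusted p under 0.05 and the median was 0.18, beside 193 higher and 192 lower of the 13766 genes that reached the filter without GFP-BM REPOP. The counts and medians of tested members are given as a description for this reason. *Ccr1*, a chemokine receptor of monocytes, was at 0.192, 0.0910 and 0.134 FPKM in GFP-BM CON and at 0.519, 0.548, 0.509 and 0.547 in GFP-BM REPOP, on 5 to 13 reads against 33 to 34, and it failed the filter on low values, so no fold change is given. Of 27 pan-myeloid genes tested, 10 were higher and 0 lower at an unadjusted p under 0.05 (median 0.20), 0 passed, and all 27 reached the filter without GFP-BM REPOP.

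Macrophages of the brain borders express *Ms4a7* too. Of the 18 symbols of their list, 6 were tested and *Ms4a7* passed. At an unadjusted p under 0.05, 4 including it were higher (1.58% of all genes), and the median was 0.75. *Ms4a7*, *Mrc1* and *Cbr2* reached the filter only through GFP-BM REPOP. Of the other 3, 2 were higher at that p, with a median of 0.47. *Mrc1*, the mannose receptor, was at 0.902, 1.24 and 0.680 FPKM in GFP-BM CON and at 1.58, 1.09, 1.29 and 1.93 in GFP-BM REPOP, and overlapped (0.60 ± 0.25, adjusted p = 1.00). *Pf4*, a chemokine, overlapped as well at 1.42, 0.701 and 1.22 against 2.35, 1.36, 2.09 and 2.87. *Cd163*, a scavenger receptor that defines these cells, was at 0.356 to 0.646 FPKM in GFP-BM CON and 0.337 to 0.585 in GFP-BM REPOP, and *F13a1*, a coagulation factor subunit of the same cells, at 0.407 to 0.604 and 0.374 to 0.510. The groups overlapped in both defining markers. *Cd209f*, a lectin of these macrophages, was lower in GFP-BM REPOP without overlap, at 0.414, 0.558 and 0.455 FPKM in GFP-BM CON and 0.201, 0.297, 0.229 and 0.205 in GFP-BM REPOP, on 5 to 12 reads. *Clec10a*, another lectin, overlapped at 0.361 to 0.687 against 0.267 to 0.439 FPKM, as did the folate receptor gene *Folr2* at 0.428 to 1.14 against 0.274 to 0.759. These 5 genes were under the filter and were not tested. The part of border macrophages in the level of *Ms4a7* was not tested.

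Genes of the homeostatic microglia program lay on both sides, and of 29 tested 0 passed. At an unadjusted p under 0.05 stood 6 that were lower in GFP-BM REPOP and 3 that were higher (1.36% and 1.58% of all genes), with a median log2 difference of -0.03. *Crybb1*, a crystallin that marks adult microglia in the brain, was at 2.06, 2.54 and 1.54 FPKM in GFP-BM CON and at 0.816, 0.862, 1.21 and 0.731 in GFP-BM REPOP, against 3.69 to 7.81 in WT CON (-1.09 ± 0.23, adjusted p = 0.986). *P2ry12*, the ADP receptor that guides microglial processes, was at 7.67, 7.54 and 7.57 against 3.83, 4.95, 5.89 and 3.55 (-0.75 ± 0.17, adjusted p = 0.999). The controls differed little among themselves while the repopulated libraries spread widely, all below them. In WT CON *P2ry12* ran from 0.616 to 6.70 FPKM, and the lowest value was that of replicate 2, which stood apart by GC content.

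*Lag3*, an inhibitory receptor, was at 1.94, 1.83 and 1.95 FPKM in GFP-BM CON and at 1.07, 1.15, 1.18 and 0.728 in GFP-BM REPOP (-0.85 ± 0.19). *Selplg*, the ligand of P-selectin, was at 2.93, 2.34 and 2.96 against 1.56, 1.91, 1.69 and 1.19 (-0.76 ± 0.18). *Slc2a5*, a fructose transporter, was at 1.36, 1.35 and 1.28 against 0.561, 0.987, 0.711 and 0.486 (-0.90 ± 0.24). In these 3 genes, and in *Siglech*, a sialic acid-binding lectin at 2.66, 3.07 and 3.05 against 1.60, 2.37, 2.32 and 1.37 FPKM, the groups did not overlap. *Lag3* and *Selplg* were chosen among genes without overlap, as was *Pmepa1*, given below. Other genes of the program lay close together. *Tmem119*, a transmembrane marker of microglia, overlapped at 7.45, 6.65 and 8.15 against 5.51, 7.15, 6.52 and 5.38 (-0.27 ± 0.12), and *Sall1*, a transcription factor of microglial identity, ran from 4.10 to 4.90 against 3.89 to 4.54. *Fcrls*, an Fc receptor-like gene that microglia express, was on the other side at 10.1, 9.55 and 9.40 against 15.9, 12.3, 12.5 and 16.0 (0.54 ± 0.11), as was *Pmepa1*, a regulator of TGF-beta signalling, at 7.85, 8.46 and 6.88 against 10.8, 10.9, 10.4 and 10.8 (0.47 ± 0.08, adjusted p = 0.428).

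**Figure D2:**
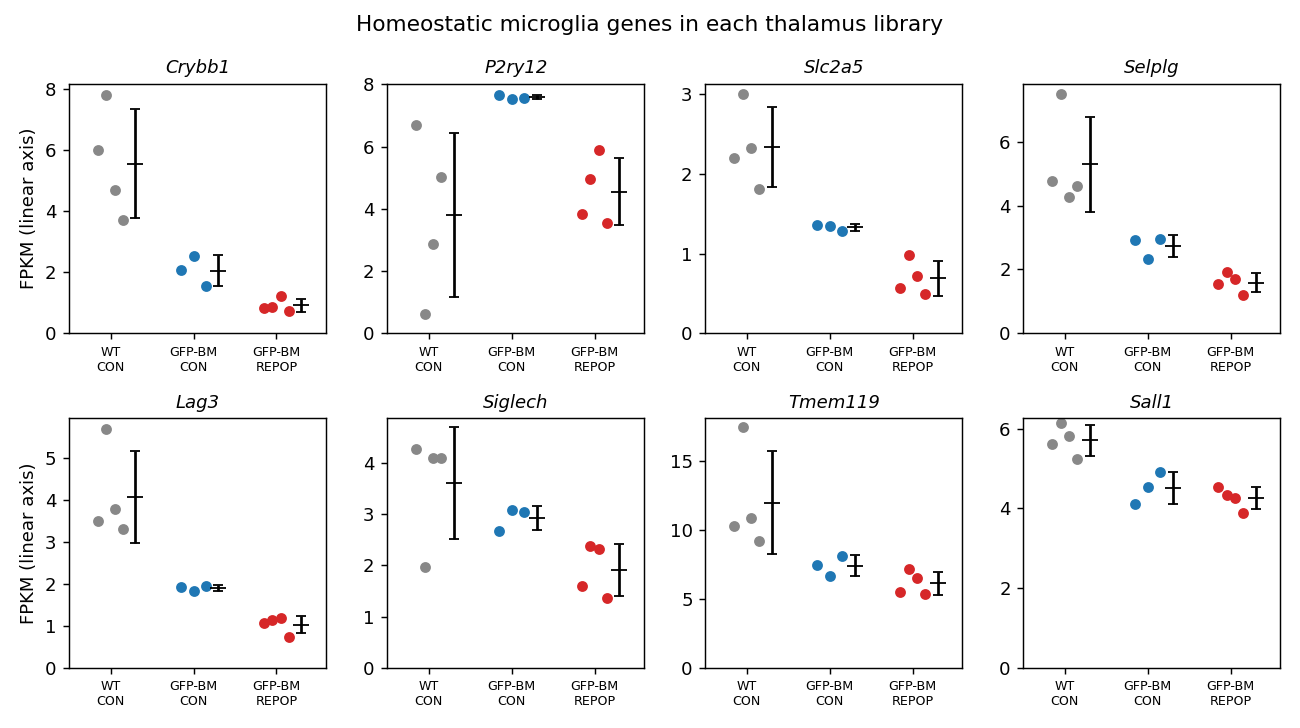
FPKM on linear axes of 8 homeostatic microglia genes in each thalamus library of WT CON (grey, n = 4), GFP-BM CON (blue, n = 3) and GFP-BM REPOP (red, n = 4), with black bars for mean ± SD. The red points lie below the blue ones without overlap in the first 6 panels, whereas *Tmem119* and *Sall1* overlap, and none of the 8 genes passed the adjusted p. *Selplg* and *Lag3* were chosen among genes without overlap.

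The genes that microglia switch on in disease include several that macrophages express at rest. Of 27 tested, 9 were higher and 1 lower at an unadjusted p under 0.05 (1.58% and 1.36% of all genes). None passed, and the median was 0.12. *Igf1*, *Cst7* and *Clec7a* reached the filter only through GFP-BM REPOP, and of the other 24, 8 were higher and 1 lower at that p. *Apoe*, the apolipoprotein that astrocytes also make, was at 1663, 1415 and 1597 FPKM in GFP-BM CON and at 2098, 1833, 1906 and 2372 in GFP-BM REPOP, without overlap (0.39 ± 0.10). *Clec7a*, the receptor dectin-1, was at 0.440, 0.566 and 0.813 against 2.01, 1.18, 1.15 and 1.82 (1.21 ± 0.28), and *Axl*, a receptor tyrosine kinase for apoptotic cells, at 11.4, 11.4 and 10.6 against 13.3, 13.2, 12.7 and 14.0 (0.26 ± 0.06). *Trem2*, the lipid receptor of this state, was at 11.2, 11.03 and 11.3 against 14.2, 11.8, 12.7 and 15.8 (0.28 ± 0.10). All 4 kept the groups apart, and none had an adjusted p under 0.999.

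In the lists of effector functions 0 members passed the adjusted p. Over all genes tested, 1.58% were higher and 1.36% lower at an unadjusted p under 0.05. Of 19 complement genes tested, 5 were higher and 0 lower at that p (median 0.02). *C1ra* and *C3ar1* reached the filter only through GFP-BM REPOP, and of the other 17, 4 were higher and 0 lower. *C3ar1*, the C3a receptor, was at 0.670, 0.575 and 0.773 FPKM in GFP-BM CON and between 1.02 and 1.74 in GFP-BM REPOP (0.89 ± 0.24), and *C4b*, which astrocytes make as well, at 24.1, 21.9 and 20.6 against 30.7, 24.9, 26.9 and 36.3 (0.41 ± 0.12). The counts at the same p were 2 higher and 0 lower of 5 phagocyte oxidase genes (median 0.18). *Cybb* and *Ncf4* were past the filter only through GFP-BM REPOP, and of the other 3, 1 was higher and 0 lower. The counts were 4 higher and 0 lower of 13 Fc and Toll-like receptor genes (0.05). They were 4 and 0 of 21 genes of MHC antigen presentation (0.13), and 5 and 0 of 33 lysosomal genes (0.02). The interferon-stimulated genes had a median of -0.11 and 1 higher of 28, *Bst2*, a restriction factor that tethers virions. *Bst2* was at 7.81, 6.63 and 6.18 FPKM against 10.2, 9.29, 10.6 and 14.5. Of 14 cytokine and chemokine genes, 1 was higher and 1 lower (median 0.07). The higher was *Cxcl16*, a membrane-bound chemokine, at 0.835, 1.28 and 0.790 FPKM in GFP-BM CON and 3.15, 1.67, 1.78 and 2.23 in GFP-BM REPOP (1.10 ± 0.26), and the lower was *Ccl6*, a chemokine of myeloid cells, at 0.843, 1.26 and 0.791 against 0.620, 0.753, 0.590 and 0.444 (-0.59 ± 0.25).

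**Figure D3:**
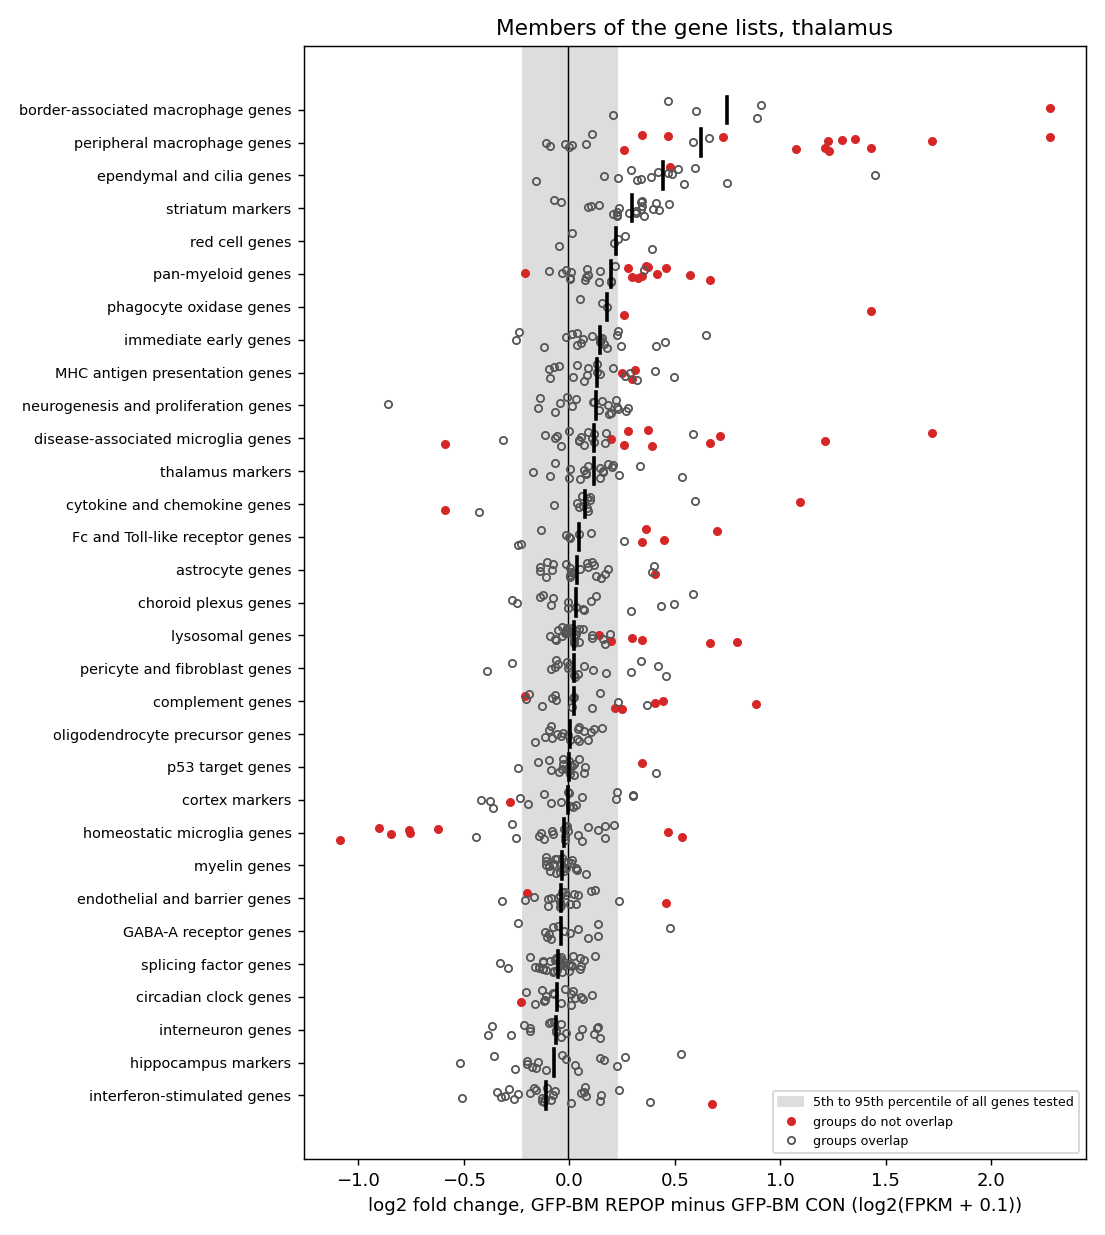
Log2 difference of GFP-BM REPOP minus GFP-BM CON thalamus on the log2(FPKM + 0.1) scale for every tested member of the 31 gene lists with at least 5 of them, with filled red points where the groups do not overlap, open points where they do, a thick black bar for the list median, a thin line for the median of all genes, and a grey band for the 5th to 95th percentile of all 14107 genes (-0.22 to 0.23). Rows are ordered by median, with border macrophages (0.75), peripheral macrophages (0.62), ependyma and cilia (0.45) and striatum markers (0.30) at the top. The medians of the other 27 lists lie between -0.11 and 0.22. Some members reached the filter on low values only through GFP-BM REPOP, which favoured a higher level there. Without them the medians were 0.47 for border macrophages, 0.18 for peripheral macrophages and 0.45 for ependyma and cilia.

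Genes of other brain cells had few members at an unadjusted p under 0.05, and 0 passed. Over all genes tested, 1.58% were higher and 1.36% lower at that p. *Gfap*, the intermediate filament of astrocytes, overlapped at 65.5, 92.2 and 78.8 FPKM in GFP-BM CON and 109, 80.6, 93.3 and 134 in GFP-BM REPOP (0.39 ± 0.18), and *S100b*, another astrocyte gene, overlapped at 96.2 to 126 FPKM over the 7 libraries. Of 24 astrocyte genes tested, 2 were higher at an unadjusted p under 0.05, *C4b* and the protease inhibitor *Serpina3n*, and the median was 0.04. Of 23 myelin genes, 19 genes of oligodendrocyte precursors and 14 GABA-A receptor genes, 0 stood at that p in either direction, with medians of -0.04, 0.00 and -0.04. *Dcx*, a gene of young neurons, overlapped at 2.23 to 2.90 against 1.80 to 3.24 FPKM, a log2 difference of -0.07 ± 0.21 whose sign turned in 5 of 22 alternative analyses. *Mki67*, a gene of dividing cells, was at most 0.159 FPKM in every library and was not tested. Markers of lymphocytes and neutrophils were mostly under the filter as well, with 1 of 24 and 1 of 13 tested. The 23 endothelial genes (median -0.04) had 1 higher and 1 lower at that p, the 22 immediate early genes (0.15) had 1 higher and the 18 clock genes (-0.06) had 1 lower. The lists of pericytes and fibroblasts (0.02), neurogenesis and proliferation (0.13), p53 targets (-0.00075), interneurons (-0.06) and splicing factors (-0.05) had 0 in either direction.

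Tissue composition varied within both groups. For the counts that follow, 1.58% of all genes were higher and 1.36% lower at an unadjusted p under 0.05. The 16 tested genes of ependyma and cilia had a median of 0.45, with 2 higher at an unadjusted p under 0.05, *Foxj1* and *Zmynd10*. *Foxj1*, the transcription factor of motile cilia, overlapped at 4.69, 4.04 and 5.94 FPKM in GFP-BM CON and 8.03, 8.94, 5.31 and 5.65 in GFP-BM REPOP. *Zmynd10*, a factor for the assembly of ciliary dynein, did not overlap at 1.62, 1.53 and 1.27 against 2.06, 2.36, 2.15 and 1.79 FPKM. Of the 22 striatum markers, 20 were on the higher side in GFP-BM REPOP with a median of 0.30, and 3 were higher and 0 lower at an unadjusted p under 0.05 (*Rasd2*, *Scn4b* and *Syndig1l*, each with overlap). Their summed level ran from 670 to 1048 FPKM in GFP-BM CON and from 801 to 1177 in GFP-BM REPOP. The cortex markers (median -0.01) had 1 lower at that p, *Lamp5*, at 16.8, 21.5 and 20.2 against 15.7, 15.1, 16.4 and 16.5 FPKM without overlap, and the hippocampus markers (-0.07) had 1 lower, *Lypd1*, with overlap. These lists and the red cell genes (0.22) overlapped in summed level. The thalamus markers (median 0.12) and the choroid plexus genes (0.03) overlapped too, the latter with summed levels of 149 to 653 and 234 to 838 FPKM. The summed level of the pan-myeloid genes, at 236 to 243 FPKM in GFP-BM CON and 257 to 306 in GFP-BM REPOP, did not overlap. In WT CON this sum ran from 257 to 393 FPKM, so the GFP-BM REPOP levels overlapped those of WT CON.

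The gene with the smallest p among those lower in GFP-BM REPOP was *Ide*, the insulin-degrading enzyme (chr19:37268743-37334544), which is not a myeloid gene. It was at 20.2, 15.8 and 14.6 FPKM in GFP-BM CON and at 10.2, 9.70, 9.37 and 9.30 in GFP-BM REPOP (-0.79 ± 0.11, adjusted p = 0.279). The WT CON thalamus libraries held 5.34 to 18.04. In cortex, animals 18, 6 and 9 held 22.4, 15.5 and 16.4 FPKM and the GFP-BM REPOP animals 9.74 to 10.2, but GFP-BM CON animal 7, whose thalamus was not analysed here, held 10.2. In hippocampus animals 18, 6, 9 and 7 were at 14.8, 14.01, 10.5 and 10.2 FPKM and GFP-BM REPOP at 5.77 to 8.07, without overlap. WT CON levels differed between regions of 1 animal, with 20.5 FPKM in cortex, 12.7 in hippocampus and 5.34 in thalamus of animal 34. That thalamus library is WT CON replicate 2, which stood apart by GC content. *Btaf1*, an ATPase that removes TBP from DNA and a neighbour of *Ide* on chromosome 19, was at 8.65, 7.25 and 5.91 FPKM in GFP-BM CON thalamus and at 4.26, 4.70, 5.20 and 4.85 in GFP-BM REPOP, and *Fgfbp3*, a growth factor-binding protein nearby, at 5.77, 4.17 and 4.12 against 3.22, 3.43, 3.76 and 2.59. *Cpeb3* and *March5*, annotated between these loci, overlapped at 17.97 to 19.5 against 18.5 to 19.8 FPKM and at 13.3 to 14.2 against 13.1 to 14.3. As background, stocks of C57BL/6J are known to differ in the copy number of a segment with *Ide* and *Fgfbp3*, and the part of genotype in these values was not tested.

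*Ccl21b*, a chemokine of lymphoid tissue with near-identical copies on chromosome 4, was at 6.93, 7.13 and 7.49 FPKM in GFP-BM CON and at 0.214, 6.22, 0.357 and 0.603 in GFP-BM REPOP. Animal 2 was thus at the level of the controls, while animals 1, 3 and 4 held 4 to 11 reads. The same split was seen in cortex, where animal 2 held 24.1 FPKM and animals 1, 3 and 4 held 0.687, 0.719 and 0.502. The predicted genes *Gm21541* and *Gm13304* of the same region had 4.18 and 4.12 FPKM in animal 2 and at most 0.578 in the other GFP-BM REPOP animals. Without GFP-BM REPOP replicate 2, 7 genes passed the adjusted p, 5 of them lower, and those 5 were *Ccl21b* (log2 difference -3.97, adjusted p = 0.011), *Gm21541*, *Gm13304*, *Gm10591* and an unnamed gene. Values of these copies are uncertain, since the counting could divide reads among them.

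**Figure D4:**
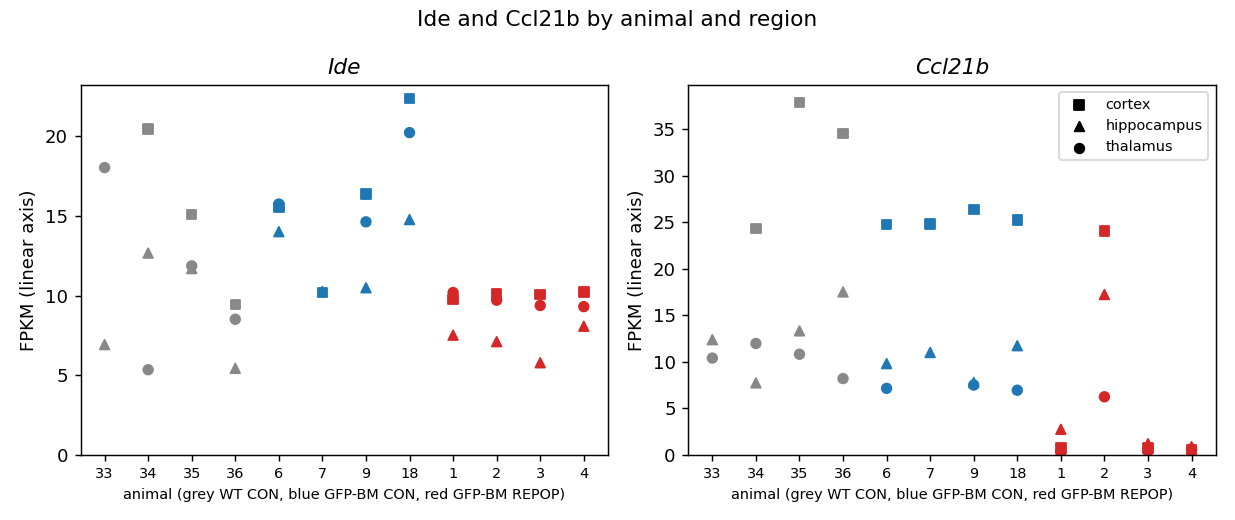
FPKM on linear axes of *Ide* and *Ccl21b* by animal, in cortex (squares), hippocampus (triangles) and thalamus (circles), for WT CON (grey), GFP-BM CON (blue) and GFP-BM REPOP (red). *Ide* in GFP-BM CON animal 7 lies near the red animals in cortex at 10.2 FPKM, and *Ccl21b* in GFP-BM REPOP animal 2 lies near the blue animals.

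The other genes that led among those lower in GFP-BM REPOP differed by small amounts. *Metrn*, a secreted neurotrophic factor, was at 48.6, 51.4 and 48.2 FPKM in GFP-BM CON and at 43.7, 41.0, 39.3 and 41.6 in GFP-BM REPOP (-0.25 ± 0.05, adjusted p = 0.986). *Ubash3b*, a tyrosine phosphatase, was at 11.5, 13.5 and 11.9 against 10.1, 9.24, 9.87 and 9.66 (-0.33 ± 0.07). *Emc2*, a subunit of a complex that inserts proteins into the endoplasmic reticulum membrane, ran from 33.3 to 34.7 against 28.6 to 30.8, and *Dusp19*, a dual-specificity phosphatase, from 10.1 to 10.9 against 8.55 to 9.03. The groups did not overlap in any of these, by the rule that chose them.

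The same contrast was set beside the other regions in 1 limma-trend fit of the 23 libraries of both irradiated groups, where libraries of 1 animal were allowed to correlate (estimated correlation 0.0404). For the effect in thalamus minus that in cortex, 0% of genes passed the adjusted p (0 of 14107, and 60 at an unadjusted p under 0.05). *Ms4a7* differed by 2.29 ± 0.47 in thalamus and 2.47 ± 0.43 in cortex (SE), a difference of -0.18 ± 0.62, and *Apobec1* by 1.24 ± 0.24 and 1.48 ± 0.22. *Crybb1* stood at -1.09 ± 0.31 in thalamus and -1.38 ± 0.29 in cortex, and *Slc2a5* at -0.90 ± 0.24 and -1.10 ± 0.22. The standard errors of the differences were wide, and the missing calls do not show that both regions responded alike. The 3 smallest p were those of *Coa4*, a mitochondrial assembly factor (-0.75 ± 0.20), *Snhg1*, a snoRNA host gene (0.51 ± 0.16), and the zinc finger gene *Zfp61* (-0.36 ± 0.12), each with an adjusted p of 1.

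For the effect in thalamus minus that in hippocampus, 95 genes passed (0.673%), but 4 with all 9 groups in the fit. Of the 95, 68 had the lower effect in thalamus, and 0 of the 95 were on the peripheral macrophage, border macrophage, pan-myeloid, disease or homeostatic lists. In the thalamus comparison alone, 4 of the 95 stood at an unadjusted p under 0.05, beside 2.94% of all genes. The 3 smallest p were those of genes whose log2 difference, not their FPKM, was near 0 in thalamus. *Cdh22*, a cadherin, was at -0.17 ± 0.14 in thalamus and 1.31 ± 0.13 in hippocampus, a difference of -1.48 ± 0.19 (adjusted p = 0.00304). *Ldb2*, a LIM domain-binding cofactor, differed by -1.45 ± 0.20 and *Il17d*, a cytokine of the IL-17 family, by -1.003 ± 0.14 (adjusted p = 0.00308 for both). In thalamus *Il17d* was at 15.1 to 16.5 FPKM in GFP-BM CON and 13.7 to 17.2 in GFP-BM REPOP. For *Ms4a7* the effect was 1.52 ± 0.43 in hippocampus, and the difference of 0.77 ± 0.62 did not pass (adjusted p = 0.545), as for *Lyz2* (0.21 ± 0.64, adjusted p = 0.888) and *P2ry12* (0.63 ± 0.46, adjusted p = 0.497). The count of 95 fell to between 17 and 79 when 1 thalamus library was left out. Hippocampus libraries were not left out in turn, and their part in the count was not tested.

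**Figure D5:**
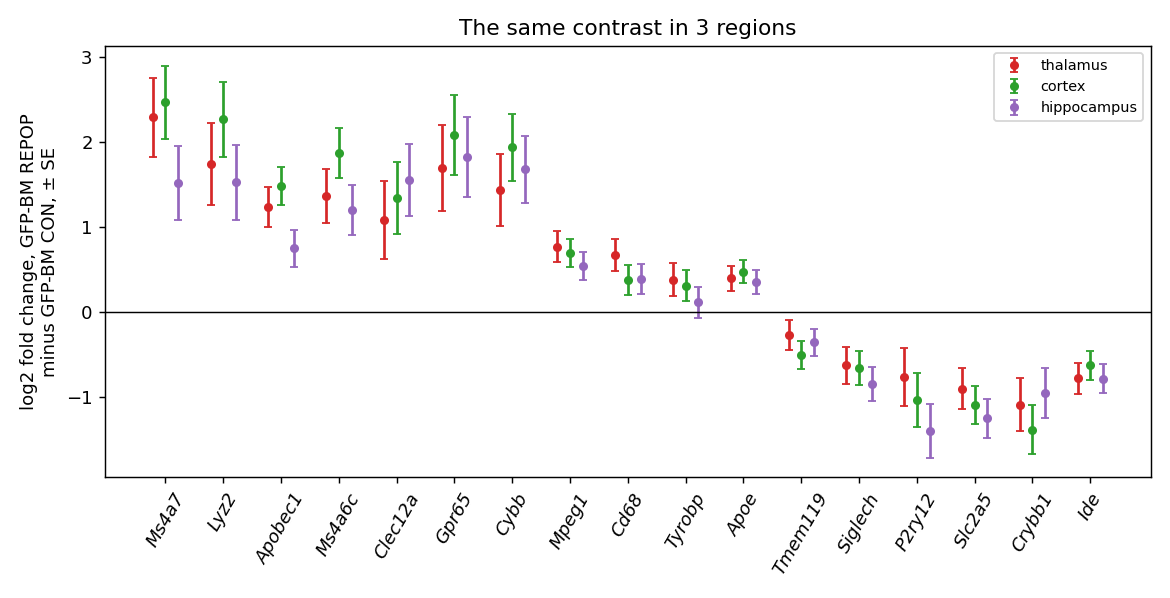
Log2 difference of GFP-BM REPOP minus GFP-BM CON ± SE for 17 genes in thalamus (red), cortex (green) and hippocampus (purple), from 1 fit of 23 libraries. The macrophage genes on the left lie above 0 and *P2ry12*, *Slc2a5*, *Crybb1* and *Ide* on the right below 0 in all 3 regions, and no gene of the plot passed the test of a difference between regions. In hippocampus the FPKM of *Ms4a7* and *Lyz2* overlapped between the groups.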

How the data were processed

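The authors sequenced total RNA of brain regions as paired 150-base reads, aligned it with STAR, counted reads per gene with Rsubread (featureCounts) and deposited FPKM values for 16389 genes in 34 libraries. Processing notes name mm10. Reads were recovered from the steps between the FPKM values (100.0% whole within 0.02 reads). Strand-specific counting is not given in the sources used here. Genes with an FPKM of at least 1 in 3 or more thalamus libraries were kept (14433), and 326 of other biotypes were left out by RefSeq biotype (15947 of 16389 IDs matched), leaving 14107.

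GFP-BM REPOP was compared with GFP-BM CON by limma-trend (limma 3.58.1, R 4.3.3), two-sided, on log2(FPKM + 0.1), which understates the changes of low genes, with Benjamini-Hochberg adjustment over all genes tested. Differences between regions were contrasts of contrasts with duplicateCorrelation over animals, on the same genes. All 33 gene lists were described by counts and medians, without a test. Genes to be named were those the study names or stained and *Lyz2*, the 10 leading in each direction (filled by moderated t among genes without overlap), up to 4 per list, and the 3 leading for each region difference. *Adgre1*, *Csf1r*, *Ms4a6d*, *Trem2*, *Foxj1*, *Fgfbp3*, *Cpeb3*, *March5*, *Ccl21b* and its neighbours, *Sall1*, *Cybb*, *Fcrls*, *Rn45s*, *Cd209f*, *Clec10a*, *Folr2*, the genes named with a filter or region marker count, and those that mark sex or other tissues were named after their values were seen or as markers. The members and lists were chosen with earlier results of these data known. Animals and replicates came from the labels, p-values measure the spread between single animals, and the fits were tested on simulated data.

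Depth limits genes of few reads. Alternatives were another pseudocount, filter, scaling, fit or weighting, the replicate number as a block, voom, and leaving out each library. A correction for GC content and length (13365 genes) was chosen after seeing the data.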

Additional observations from a re-analysis of the deposited data

Results flagged for a closer look

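Among 73 genes checked, in 2 the 4 GFP-BM REPOP thalamus libraries held 1 that lay far from the other 3, with a gap over the range of log2(FPKM + 0.1) above Dixon's 95% critical value. They were *Gpr65* (0.854, replicate 2 low at 0.624 FPKM) and *Pmepa1* (0.855, replicate 3 low at 10.4 FPKM). Chance gives about 1 such gene in 20.

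The effect of GFP-BM REPOP against GFP-BM CON differed between thalamus and hippocampus for 95 genes in the test of the difference, for 4 with all 9 groups in the fit, and for 17 to 79 with 1 thalamus library left out. The leading 3 were *Cdh22* (-1.48), *Ldb2* (-1.45) and *Il17d* (-1.003, log2 difference of the effects).

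*Eif2s3y*, a Y-linked gene, did not reach the filter on low values and was not tested. GFP-BM CON replicate 1 held 838 reads of *Eif2s3y*, where every library of the other animals held at most 3.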

How the results depend on the processing

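The 1 gene past the adjusted p, *Ms4a7*, which is also the 1 named gene and the 1 list member that passed, had its call lost (0 genes) with all 3 thalamus groups in the fit (smallest adjusted p of any gene 0.44), with all groups and regions in 1 fit (0.177), with the replicate block (0.135) and with voom on the recovered reads (0.285), and the cause was not tested. When each library was left out in turn, the count ran from 0 to 7 genes, and from 0 to 2 for the named genes and for list members. The other 10 alternatives, and the correction for GC content and length, gave 1 gene each. The log2 difference of *Ms4a7* lay between 1.67 and 2.40 over all 22 alternatives, the lowest with a pseudocount of 1. The replicate numbers name different animals. The deviations of same-numbered libraries correlated at -0.321, 0.0402 and -0.412, so the numbers do not pair the samples.

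The count for thalamus minus hippocampus was 4 in place of 95 with all 9 groups in the fit, and 17 to 79 with 1 thalamus library left out. For thalamus minus cortex it was 0 in every alternative. The sign turned for *Dcx* with array quality weights (0.029) and the replicate block (0.066), and for *Il17d* with quantile normalization (0.0067), median-ratio scaling (0.00065) and voom (0.0035). With 1 library left out, *Dcx* ran from -0.20 to 0.066, *Il17d* from -0.050 to 0.061 and *Ldb2* from -0.10 to 0.027. Of the list medians, 18 moved by more than the spread between libraries and 664 did not.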

Other observations

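Thalamus values of other genes known to differ between C57BL/6 stocks were read by animal. *Wdfy1*, an endosomal adaptor, was at 14.4 FPKM in GFP-BM CON animal 6, 13.6 in animal 18 and 20.2 in animal 9, and at 20.9, 14.7, 21.6 and 17.9 in GFP-BM REPOP animals 1 to 4. *Entpd4*, a Golgi nucleotidase, was at 36.9, 47.0 and 24.7 FPKM in animals 6, 18 and 9 and at 23.7, 34.4, 21.3 and 23.5 in GFP-BM REPOP. In both genes GFP-BM REPOP animal 2 stood with GFP-BM CON animals 6 and 18, and GFP-BM CON animal 9 stood with GFP-BM REPOP animals 1, 3 and 4. *Nnt*, a mitochondrial transhydrogenase, was at 7.50 to 8.39 FPKM in GFP-BM CON and at 8.75 to 10.9 in GFP-BM REPOP, with animal 2 the lowest of its group. These genes were chosen after their values were seen.

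Of the 20 genes with the smallest p in thalamus, 12 were on the 5 myeloid lists and 17 were higher in GFP-BM REPOP. The lists held 0.73% of all genes tested, and they were chosen with results of these data known. *Ms4a7*, *Ms4a6c*, *Clec12a*, *Gpr65* and *Cybb*, which are among the 20, reached the filter on low values only through GFP-BM REPOP. The count is therefore given as a description.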
